A study of Mus musculus with 12 samples.

Results

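The mRNAs described here encode the subunits of the respiratory chain and the ATP synthase that are made from nuclear genes, with the complex I assembly factors that share their symbols. Members were protein-coding genes outside the mitochondrial chromosome whose symbol begins with Nduf, Uqcr or Atp5, or with Cox followed by a number from 4 to 8. Ndufa10 was left out, as were 13 pseudogenes and noncoding genes. These rules gave 84 members among 17202 gene names with usable cytosines, and 4 further symbols (Cox7b2, Cox8b, Cox8c and Ndufa4l2) appeared in no list. The members comprised 36 complex I subunits, 8 complex I assembly factors, 8 complex III genes, 15 complex IV genes and 17 ATP synthase genes.

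The respiratory chain passes electrons from NADH and succinate through complexes I, II, III and IV to oxygen and pumps protons across the inner mitochondrial membrane, and the ATP synthase uses the proton gradient to make ATP. Most subunits are translated on cytosolic ribosomes and imported, while a small core of complexes I, III, IV and the ATP synthase is translated inside the organelle from mitochondrial DNA. Neural stem cells are known for relying on glycolysis more than their neuronal progeny do, and they raise oxidative phosphorylation as they differentiate.

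Neural stem cells (NSCs) came from the subventricular zone of male wild-type C57BL/6 mice aged 6 to 8 weeks and were grown as monolayers with EGF and bFGF. They were kept for 4 days in 1.5 μM (low folate, LF), 10 μM (medium folate, MF) or 80 μM (high folate, HF) folic acid. Poly(A) RNA from whole cells (LF, MF, HF) and from the pooled polysome fractions of a sucrose gradient, where mRNAs carrying several ribosomes sediment (pLF, pMF, pHF), was converted with bisulfite and sequenced, with 2 replicates in each of 6 groups. Bisulfite turns unmethylated cytosine into uracil, so a cytosine that is still read as cytosine is either methylated (m5C) or was not converted. The study calls the replicates biological, while the labels do not say that they came from separate cultures. The p-values of limma measure only the spread between these samples. Those of Fisher's exact test come from reads pooled over replicates and do not measure that spread.

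Each of the 12 libraries listed 797260 to 2071190 cytosines, with coverage summed over cytosines of 1186213013 to 2857966129. A read counts in this sum at every listed cytosine it covers, so the sum is not a number of reads. The level of an mRNA was taken as the median coverage of its cytosines with a methylation level below 0.05, divided by the same value of the library's median gene, and is given below as times the median gene. Because coverage is counted per position, it does not grow with transcript length. A cytosine was listed only when its coverage reached 10 and at least 1 read was unconverted, and a level below 0.05 therefore needs a coverage of at least 21, so poorly covered cytosines are seldom listed and the values of weakly covered mRNAs are too high. Both libraries labelled HF stood apart. Over all genes their levels correlated with those of LF and MF at r = 0.72 to 0.76, against 0.90 to 0.91 among the LF and MF libraries, and over the members at 0.67 to 0.79 against 0.91 to 0.95. At 41 of 93 and 44 of 88 positions in a site list of the study, their coverage lay below the listed coverage, and 6 and 7 of these positions were not found in the lists used here, against 0 positions of either kind in each of the other 10 libraries. Whether these lists came from another run or filter, or carry the wrong label, was not tested, so their values are given for the HF label and not as an effect of high folate. Replicate 2 of pHF had the highest median coverage, 920, and 38353 cytosines with a level above 0.9. The NSC markers, Vim and Fabp7 foremost, summed to 92.4 to 144.6 times the median gene in every library, and Nes was at 2.68 to 6.5 in the 12 libraries. Within this list of 6, single markers stood higher or lower in the libraries labelled HF, which was not tested. Msi1 was at 3.36 and 1.9 under it and 0.313 to 0.629 in LF and MF, Slc1a3 at 1.73 and 2.15 against 3.83 to 4.68, and Fabp7 at 9.32 and 9.9 against 17.5 to 32.7, and Sox2 was found in 0 of the 12 lists used here. The markers of neurons summed to 1.51 to 3.41 with Rbfox3 and Snap25 in 0 lists, those of astrocytes to 0.59 to 1.46, those of oligodendrocytes to 2.26 to 4.46, those of microglia to 0.14 to 1.07 (Cx3cr1 alone, as the other 3 were found in 0 lists) and those of endothelium to at most 0.245. S100b, Mog, Cldn5 and Dcn, markers of astrocytes, oligodendrocytes, endothelium and mesenchymal cells, were likewise found in 0 lists. Mesenchymal or perivascular markers, 6 in all and mostly Col1a2, summed to 18.9 to 19.7 in the libraries labelled HF and to 8.09 to 14.7 in the other 10. Their part in the results for the HF label was not tested.

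Respiratory chain mRNAs were among the best covered mRNAs of these cells. In all 12 libraries the median member lay above the median gene, at 4.13 and 4.24 (LF), 4.12 and 4.32 (MF) and 4.01 and 3.80 (HF) in total mRNA and at 7.18 and 9.49 (pLF), 7.37 and 7.33 (pMF) and 7.28 and 5.71 (pHF) in polysomes. Polysome libraries thus held the 6 highest medians. Of the 73 members with at least 5 usable cytosines in every library, 45 were at or above percentile 90 of the 8683 genes tested. Below the median gene were 2 members, Ndufab1, the mitochondrial acyl carrier protein, at 0.588 times and the complex I assembly factor Ndufaf5 at 0.654 times. The median over members was 5.09 for complex I subunits, 7.38 for complex III, 6.33 for complex IV and 6.79 for the ATP synthase, and 1.35 for the 5 assembly factors tested. The 11 members that were not tested, Atp5s, Cox4i2, Cox6a2, Cox6b2, Cox7a1, Ndufa1, Ndufaf2, Ndufaf4, Ndufaf6, Ndufb4 and Ndufc1, had too few listed cytosines in at least 1 library.

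Averaged over the 12 libraries, the highest level was that of Atp5b, the catalytic β subunit of the ATP synthase, at 25.1 times the median gene. Next came Cox4i1, a regulatory subunit of complex IV, at 25, Ndufa2, an accessory subunit of complex I, at 23.9 and Atp5a1, the α subunit of the ATP synthase, at 18.9. In complex III the highest were the small subunits Uqcrq at 13.8 and Uqcrh at 12.7. Among the lowest of their complexes were Uqcrc2, a core protein of complex III, at 2.5, Cox7c at 2.62, Cox7a2l at 2.87, Atp5g2, which encodes 1 of the precursors of the membrane ring subunit c, at 1.95, and Atp5mpl, a small proteolipid of the ATP synthase, at 1.29. Isoforms known from other tissues differed in coverage. Cox7a1, the muscle isoform of subunit 7a, and Cox4i2, the lung isoform of subunit 4, each had usable cytosines in 2 of 12 libraries. Cox6a2, the muscle isoform of subunit 6a, was listed in 8 of 12 libraries, which were the 6 polysome libraries at 0.677 to 2.31 times the median gene and both libraries labelled HF at 0.319 and 0.271. No usable Cox6a2 cytosine was listed in LF or MF. The testis isoform Cox6b2 was listed in all 12 libraries at 0.313 to 1.03 times.

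The comparison of polysome with total mRNA asks which mRNAs are held more, or less, on polysomes than in the cell as a whole. At low folate 18 members were higher and 1 was lower in pLF than in LF among the 73 tested, and the limma test across all genes with Benjamini-Hochberg adjustment called 12.2% of them, 7.08% higher and 5.12% lower. At medium folate 19 members were higher and 1 was lower in pMF than in MF, where 11.3% of all genes were called, 6.7% higher and 4.55% lower. The members called higher were 24.7% and 26.0% of those tested. The median difference over members was 0.86 (log2) at low folate and 0.73 at medium folate, against 0.08 for all genes at both, and 62 and 54 of the 73 members had a positive difference. All comparisons are relative to each library's median gene, so a gene called higher gained against other mRNAs and not in absolute amount. In RNA from bulk cultures, a changed number of cells expressing a gene and changed RNA per cell cannot be told apart.

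Which cytosines a library lists depends on its depth, so differences were also taken at cytosines listed in all 4 libraries of a comparison. These are called matched positions below, a choice made after seeing the data. The limit of 0.05 on the level was not applied to them. Each such comparison was fitted by itself, so its errors come from its own 4 libraries alone. Errors were much smaller and calls in all genes many more, 58.1% at low folate and 74% at medium folate. At matched positions 32 of 63 members were higher and 9 were lower at low folate, which is 50.8% higher and 14.3% lower against 26.9% and 31.1% of all genes. At medium folate 37 of 63 were higher and 13 were lower, which is 58.7% and 20.6% against 34.2% and 39.8%. The median difference over members was 0.48 and 0.43, against -0.05 and -0.06 for all genes. The low folate and medium folate differences share no library. Across the 73 members they had the same sign in 65 and a Pearson correlation of 0.90 (0.70 across all 8683 genes), as a description, since genes are not independent and all values rest on the same protocol. In both comparisons 14 of 73 members (19.2%) were called higher, against 4.22% of all genes, namely Atp5f1, Atp5k, Cox4i1, Cox7c, Ndufa13, Ndufa4, Ndufa6, Ndufaf8, Ndufb2, Ndufc2, Ndufs5, Ndufs6, Ndufs7 and Ndufv1, and 1 was called lower (2.5% of all genes), Uqcrb. At matched positions 28 of 61 members (45.9%, against 21.3% of all genes) were called higher in both and 7 (11.5%, against 24.3%) lower, the latter Atp5g2, Atp5mpl, Cox8a, Ndufa11, Ndufa7, Uqcrb and Uqcrc2. Of the 14 members above, Atp5f1, Atp5k, Ndufaf8 and Ndufb2 were not among the 28, the last 3 for want of matched positions in at least 1 comparison. Like the number over all genes, the number of members called rested on single libraries. At low folate it was 3 without LF replicate 1, 5 without LF replicate 2, 8 without pLF replicate 2 and 12 without either MF replicate, whose spread enters the same fit. At medium folate it was 4 without MF replicate 1, 5 without MF replicate 2 or pMF replicate 1, 7 without pMF replicate 2, 13 without either LF replicate and 31 without either pLF replicate.

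**Figure D1:**
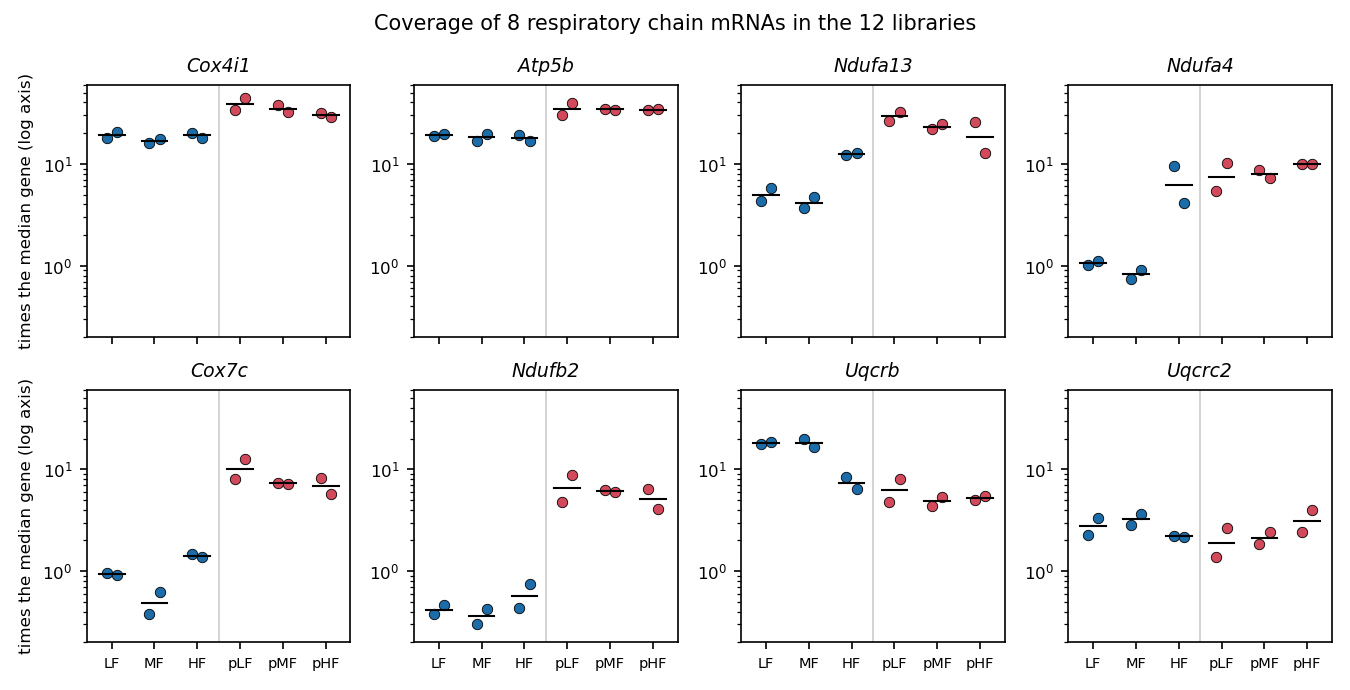
Coverage relative to the library's median gene (log axis) of 8 respiratory chain mRNAs, with 1 point per library, blue for total and red for polysome mRNA, and a line at the geometric mean of the 2 replicates. Cox7c, Ndufb2 and Ndufa4 lie higher in pLF and pMF than in LF and MF, and Uqcrb lies lower.

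Complex I, the NADH dehydrogenase, gave most of the higher members. Of its 33 tested subunits, grouped by symbol and so with Ndufa4 among them, 12 were called higher and 0 lower at low folate, and 12 and 0 at medium folate. At matched positions 19 of 28 were higher and 3 lower, and 21 of 29 higher and 5 lower, with medians of 0.80 and 0.86. Of all genes, 7.08% were called higher and 5.12% lower at low folate, and 6.7% and 4.55% at medium folate. At matched positions the shares of all genes were 26.9% and 31.1%, and 34.2% and 39.8%. Ndufa13 (chr8:69894180-69902558, minus strand; coordinates here are those of mm10), an accessory subunit also known as GRIM-19, was at 4.31 and 5.75 times the median gene (LF), 3.68 and 4.73 (MF) and 12.3 and 12.7 (HF) in total mRNA and at 26.5 and 32.3 (pLF), 22 and 24.4 (pMF) and 25.5 and 12.9 (pHF) in polysomes. Every polysome library lay above every total library, by little in the HF pair. The difference was 2.55 ± 0.37 (log2, SE; adjusted p = 0.00515, limma) at low folate and 2.47 ± 0.37 (adjusted p = 0.00642) at medium folate. All of its listed cytosines also carry the name of the overlapping gene Yjefn3, so the reads of the 2 genes were not told apart.

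Ndufa4, whose symbol places it in complex I although its protein is found in complex IV, was at 1.02 and 1.12 (LF), 0.746 and 0.911 (MF) and 9.43 and 4.11 (HF) in total mRNA and at 5.38 and 10.3 (pLF), 8.72 and 7.24 (pMF) and 9.91 and 9.97 (pHF) in polysomes. The LF and MF libraries lay far below the polysome libraries, and those labelled HF overlapped them. Its difference was 2.79 ± 0.44 (adjusted p = 0.0068, limma) at low folate and 3.27 ± 0.44 (adjusted p = 0.00404) at medium folate. Ndufb2, an accessory subunit of the membrane arm, was at 0.377 and 0.462 (LF), 0.303 and 0.429 (MF) and 0.434 and 0.748 (HF) in total mRNA and at 4.81 and 8.83 (pLF), 6.20 and 5.96 (pMF) and 6.42 and 4.07 (pHF) in polysomes. It was below the median gene in all 6 total libraries and above it in all 6 polysome libraries. The difference, 3.96 ± 0.42 (adjusted p = 0.00215, limma) and 4.07 ± 0.42 (adjusted p = 0.0018), corresponds to 15.6-fold and 16.8-fold higher coverage in polysomes. Only 19.8% of its listed cytosines carry no second gene name. Ndufb6, another accessory subunit, was at 0.680 and 0.920 (LF), 0.570 and 0.0628 (MF) and 2.24 and 2.23 (HF) in total mRNA and at 4.79 and 8.96 (pLF), 4.73 and 12.3 (pMF) and 5.47 and 7.66 (pHF) in polysomes. Its fold at medium folate rested on the low value in MF replicate 2 and was 5.33 ± 0.88 (log2; adjusted p = 0.00975, limma), against 3.05 ± 0.88 (adjusted p = 0.053) at low folate.

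The core subunits, which carry the electron path, were split. Ndufv1, which holds the NADH binding site, was at 3.01 and 2.72 (LF), 2.35 and 2.70 (MF) and 8.44 and 5.34 (HF) in total mRNA and at 5.70 and 8.95 (pLF), 8.12 and 7.33 (pMF) and 7.29 and 5.79 (pHF) in polysomes. Its polysome libraries lay above those of LF and MF and overlapped those labelled HF, with a difference of 1.32 ± 0.35 (adjusted p = 0.039, limma) at low folate and 1.61 ± 0.35 (adjusted p = 0.0215) at medium folate. Ndufs7, an iron-sulfur subunit, was at 6.52 and 6.94 (LF), 5.77 and 5.01 (MF) and 6.18 and 8.12 (HF) in total mRNA and at 14.6 and 15.2 (pLF), 13.7 and 12.5 (pMF) and 12.3 and 10.3 (pHF) in polysomes. All 6 polysome libraries lay above all 6 total libraries, and the differences were 1.15 ± 0.28 (adjusted p = 0.032, limma) and 1.28 ± 0.28 (adjusted p = 0.0225). Ndufs1, the largest iron-sulfur subunit, went the other way without passing the test. It was at 2.84 and 2.74 (LF), 3.34 and 2.82 (MF) and 0.680 and 1.90 (HF) in total mRNA and at 0.423 and 2.31 (pLF), 2.19 and 1.77 (pMF) and 0.468 and 2.37 (pHF) in polysomes. Its differences were -1.50 ± 0.90 (adjusted p = 0.30, limma) and -0.64 ± 0.90 (adjusted p = 0.67), and at matched positions it was called at low folate (-0.96 ± 0.20, adjusted p = 0.00727) and not at medium folate (-0.20 ± 0.09, adjusted p = 0.092). Ndufb7, an accessory subunit of the membrane arm, was at 8.14 to 10.5 in total and 8.11 to 17.4 in polysome libraries. Its values lay higher in pLF (11.5 and 17.4) than in LF (9.37 and 8.14) and in pMF (12.5 and 11.7) than in MF (8.46 and 10.5), while pHF replicate 2 lay below all total libraries, and it was not called (0.69 ± 0.34, adjusted p = 0.20, and 0.36 ± 0.34, adjusted p = 0.52, limma). Ndufa12, at 0.115 to 1.62 in total and 0.459 to 4.16 in polysome libraries, overlapped between the fractions. Ndufab1 was at 0.105 to 0.393 in total libraries and at 0.169 to 3.96 in polysome libraries, with pLF replicate 2 among the total values, and did not pass. Ndufa2 overlapped between the fractions too, at 21.3 to 27.5 in total and 17.1 to 37.1 in polysome libraries.

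The members that could not be tested included Ndufa1, Ndufb4 and Ndufc1, small complex I subunits chosen here after their values were seen. They were listed in all 12 libraries. The median coverage of Ndufa1 was 41 to 74 reads in LF and MF, 251 and 453.5 in the libraries labelled HF and 678 to 1086 in polysome libraries. At matched positions it was 4.79 ± 0.13 higher in pMF than in MF (adjusted p = 4.33e-05, limma), where 74% of all genes were called. Since Ndufa1 was chosen after its values were seen, this p-value is not independent of that choice. Ndufb4, whose median coverage of 22 to 37 reads in LF and MF lay close to the lowest that can be measured this way, was at 0.0451 to 0.0684 times the median gene in LF and MF, 0.187 and 0.137 in HF and 0.271 to 0.538 in polysome libraries. Ndufc1 was at 0.201 to 0.241 in LF and MF and at 0.546 to 2.06 in polysome libraries. In these 3, so chosen, every polysome library lay above every LF and MF library, which is given as a description. The share of all genes with such a separation was not counted. Cox6a2, described above, was listed in every polysome library and in no LF or MF library. Not all untested members went this way. Cox6b2 was at 0.497 and 0.958 (LF), 0.943 and 1.03 (MF) and 0.847 and 0.795 (HF), and at 0.599 and 0.593 (pLF), 0.579 and 0.627 (pMF) and 0.406 and 0.313 (pHF), so it was lower in pMF than in MF, and for Ndufaf2 and Ndufaf4 the ranges of total and polysome libraries overlapped.

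Among the assembly factors, which build complex I and leave it, Ndufaf8 was at 0.527 and 0.715 (LF), 0.498 and 0.510 (MF) and 3.44 and 2.80 (HF) in total mRNA and at 1.80 and 2.81 (pLF), 1.80 and 2.08 (pMF) and 2.02 and 1.14 (pHF) in polysomes. It was called higher in polysomes at low folate (1.88 ± 0.37, adjusted p = 0.0165, limma) and at medium folate (1.94 ± 0.37, adjusted p = 0.0155). In the libraries labelled HF it lay above LF and MF and overlapped the polysome libraries. Ndufaf3, chosen after its values were seen like Uqcrc1 and Atp5f1 below, was at 1.24 to 2.23 in the total libraries and 2.81 to 4.09 in the polysome libraries and was called at medium folate, with 1.2 ± 0.33 (adjusted p = 0.048, limma).

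**Figure D2:**
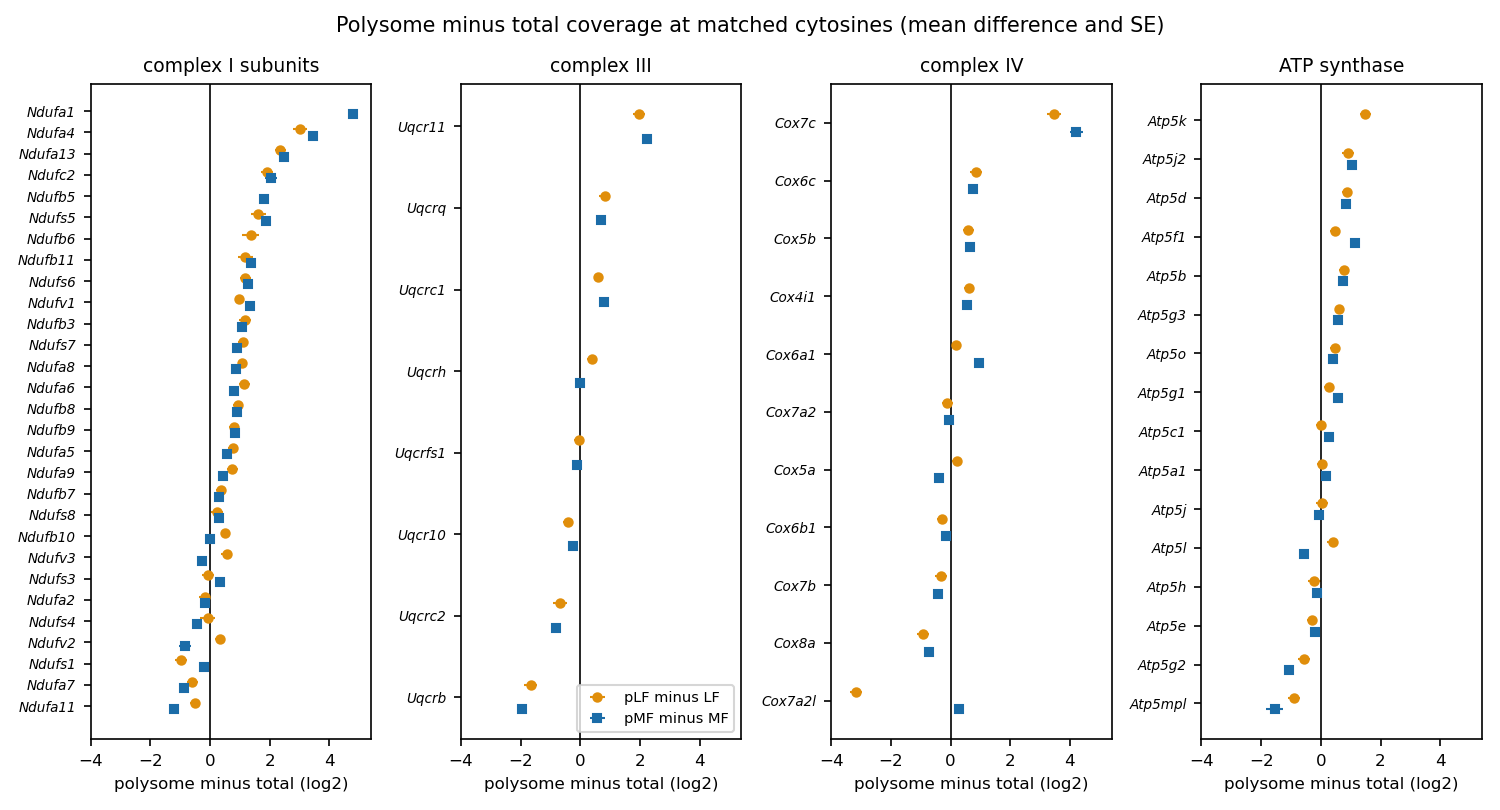
Difference of polysome and total coverage (log2, x axis) of the members plotted at matched positions, by complex, with orange circles for pLF minus LF and blue squares for pMF minus MF and bars for the SE. Most complex I subunits lie right of 0, complex III has members on both sides, and Uqcrb is near -1.66 and -1.94.

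Complex III, the cytochrome bc1 complex, did not move as a block. Of its 8 genes 0 were called higher and 1 lower at low folate, and 1 and 1 at medium folate, with medians of 0.56 and 0.42, or 0.18 and -0.06 at matched positions. Of all genes, 7.08% were called higher and 5.12% lower at low folate, and 6.7% and 4.55% at medium folate. At matched positions 3 of 8 were higher and 2 lower at each concentration. The shares of all genes there were 26.9% and 31.1% at low folate, and 34.2% and 39.8% at medium folate. Uqcrb (chr13:66900617-66905378, minus strand), a small subunit at the quinone site, was at 17.6 and 18.3 (LF), 19.9 and 16.4 (MF) and 8.43 and 6.42 (HF) in total mRNA and at 4.78 and 8.01 (pLF), 4.38 and 5.35 (pMF) and 5.04 and 5.46 (pHF) in polysomes. The LF and MF libraries lay above all others, and those labelled HF overlapped the polysome libraries. Uqcrb fell by 1.53 ± 0.33 (log2; adjusted p = 0.022, limma) at low folate and by 1.90 ± 0.33 (adjusted p = 0.011) at medium folate, to 0.345 and 0.268 of its total level. Uqcrc1, the other core protein, was called higher at medium folate at 1.08 ± 0.26 (adjusted p = 0.032, limma). Uqcrc2 was at 2.28 and 3.35 (LF), 2.85 and 3.63 (MF) and 2.22 and 2.16 (HF) in total mRNA and at 1.38 and 2.64 (pLF), 1.85 and 2.43 (pMF) and 2.42 and 3.97 (pHF) in polysomes. Its groups overlapped at low folate, and its differences of -0.53 ± 0.41 (adjusted p = 0.42, limma) and -0.60 ± 0.41 (adjusted p = 0.36) did not pass. At matched positions both did, at -0.67 ± 0.23 (adjusted p = 0.045) and -0.82 ± 0.10 (adjusted p = 0.000705). The small subunits Uqcrq and Uqcr11 had values of 1.13 ± 0.37 (adjusted p = 0.078, limma) and 1.34 ± 0.44 (adjusted p = 0.080) at low folate and were called higher at matched positions at both concentrations.

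In complex IV, cytochrome c oxidase, 2 of 11 genes were called higher and 0 lower at each concentration, with medians of 0.45 and -0.01, or 0.18 and 0.27 at matched positions. The shares of all genes were 7.08% higher and 5.12% lower at low folate, and 6.7% and 4.55% at medium folate. At matched positions 4 of 11 were higher and 2 lower, and 5 and 3, against 26.9% and 31.1%, and 34.2% and 39.8% of all genes. Cox4i1 (chr8:120668222-120674207, plus strand) was at 17.8 and 20.5 (LF), 16.0 and 17.7 (MF) and 20.2 and 18 (HF) in total mRNA and at 33.6 and 43.9 (pLF), 37.4 and 32.2 (pMF) and 31.4 and 28.7 (pHF) in polysomes. Its total libraries spanned 16.0 to 20.5 and its polysome libraries 28.7 to 43.9, with no overlap, and the differences were 1.01 ± 0.28 (adjusted p = 0.047, limma) and 1.05 ± 0.28 (adjusted p = 0.045), 2.01-fold and 2.06-fold. Cox7c (chr13:86044816-86046904, minus strand), a small structural subunit, was at 0.957 and 0.907 (LF), 0.379 and 0.622 (MF) and 1.47 and 1.38 (HF) in total mRNA and at 8.10 and 12.6 (pLF), 7.37 and 7.20 (pMF) and 8.19 and 5.71 (pHF) in polysomes. The lowest polysome library was several times above the highest total library, and the differences of 3.44 ± 0.36 (adjusted p = 0.00182, limma) and 3.91 ± 0.36 (adjusted p = 0.00138) were 10.8-fold and 15-fold. Cox7a2l (chr17:83501918-83517330, minus strand), which helps to join complexes III and IV into supercomplexes, was at 3.95 and 4.24 (LF), 4.55 and 5.25 (MF) and 6.47 and 9.48 (HF) in total mRNA and at 0.926 and 1.21 (pLF), 1.83 and 0.768 (pMF) and 0.817 and 9.89 (pHF) in polysomes. It was lower in every pLF and pMF library than in LF and MF, and pHF replicate 2 lay above all total libraries. The differences of -1.95 ± 0.93 (adjusted p = 0.19, limma) and -2.05 ± 0.93 (adjusted p = 0.18) did not pass the test. Cox6b1, a subunit facing the intermembrane space, was at 8.51 to 11.2 in LF and MF, 7 to 11.1 in polysomes and 19.6 to 21.2 under the HF label, and Cox7a2, the widely expressed isoform of subunit 7a, at 4.35 to 7.06, 3.04 to 8.72 and 17.4 to 18.6. Neither was called in polysome against total mRNA at low or medium folate, where the groups overlapped apart from Cox7a2 at medium folate (5.5 and 7.06 in MF, 3.53 and 4.99 in pMF), and both were highest in the libraries labelled HF.

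Of the 16 ATP synthase genes tested, 3 were called higher and 0 lower at low folate, and 2 and 0 at medium folate, with matched medians of 0.33 and 0.28. The shares of all genes were 7.08% higher and 5.12% lower at low folate, and 6.7% and 4.55% at medium folate. At matched positions 6 of 16 were higher and 2 lower, and 8 of 15 and 3. Against these stood 26.9% and 31.1%, and 34.2% and 39.8% of all genes. Atp5b was at 18.6 and 19.5 (LF), 16.6 and 19.8 (MF) and 19.1 and 16.9 (HF) in total mRNA and at 30.3 and 39.4 (pLF), 34.9 and 34.0 (pMF) and 33.5 and 34.4 (pHF) in polysomes. All polysome libraries lay above all total libraries, and its differences of 0.86 ± 0.28 (adjusted p = 0.073, limma) and 0.92 ± 0.28 (adjusted p = 0.061) passed only at matched positions. Its partner Atp5a1 was at 15 to 19.7 in total and 18.4 to 28.2 in polysome libraries and passed under neither. Atp5k, the membrane subunit e, was at 4.13 and 4.23 (LF), 2.39 and 3.34 (MF) and 4.25 and 3.27 (HF) in total mRNA and at 11.6 and 19.6 (pLF), 10.1 and 10.6 (pMF) and 11.5 and 5.98 (pHF) in polysomes. It was called at both concentrations, at 1.85 ± 0.40 (adjusted p = 0.022, limma) and 1.87 ± 0.40 (adjusted p = 0.022), with no overlap of the groups. Atp5f1, the stalk subunit b, was also called at both, at 1.75 ± 0.29 (adjusted p = 0.00889, limma) and 1.54 ± 0.29 (adjusted p = 0.0155). At matched positions Atp5f1 was not called higher at both. There the 5′ and 3′ parts of its transcript were at 0.39 and -0.58 at low folate and at 0.83 and -0.09 at medium folate. Atp5mpl had the most negative values of this complex, -0.71 ± 0.40 (adjusted p = 0.27, limma) and -1.37 ± 0.40 (adjusted p = 0.055), and was called lower at matched positions at both concentrations. Atp5g2 turned its direction with the cytosines used, from 0.59 ± 0.29 to -0.57 ± 0.20 at matched positions at low folate and from 0.51 ± 0.29 to -1.06 ± 0.10 at medium folate.

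Related gene groups were taken from fixed lists and read at matched positions in the same way. Of all genes there, 26.9% were called higher and 31.1% lower at low folate, and 34.2% and 39.8% at medium folate. Over all usable cytosines these shares were 7.08% and 5.12%, and 6.7% and 4.55%. The mitochondrial ribosomal proteins, which translate the organelle's own mRNAs, had medians of 0.41 (20 of 44 higher, 2 lower) and 0.28 (23 of 47 higher, 12 lower). Respiratory chain assembly factors outside the symbol rule had 0.50 and 0.61, over 8 genes. The cytosolic ribosomal proteins had -0.17 (18 higher and 21 lower of 64) and -0.33 (18 higher and 28 lower of 60), which over all usable cytosines turned to 0.27 (9 higher and 6 lower of 70) and 0.29 (10 higher and 4 lower). At matched positions the 13 and 12 TCA cycle enzymes had -0.39 and -0.10, and the 4 subunits of complex II, which the symbol rule does not take and which are all made from nuclear genes, -0.34 and -0.19. The partners encoded in mitochondrial DNA, whose mRNAs do not meet cytosolic ribosomes, were lower in polysomes in 5 of 5 and 4 of 4 genes, with medians of -3.44 and -5.07. The remaining lists had at most 1 gene with enough matched positions at these concentrations and were read over all usable cytosines. Of 11 regulators of respiratory gene expression 8 were tested, with 0 called at low folate and 2 called higher at medium folate (medians 0.37 and 0.27), and 1 of 1 was called higher at low folate at matched positions. Of the genes for cytochrome c and c1, which carry electrons in and after complex III, 1 was tested, at 0.21 and 0.12, without a call, and at matched positions at 0.02 without a call and 1.02 with one. Differences between these lists were not tested.

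**Figure D3:**
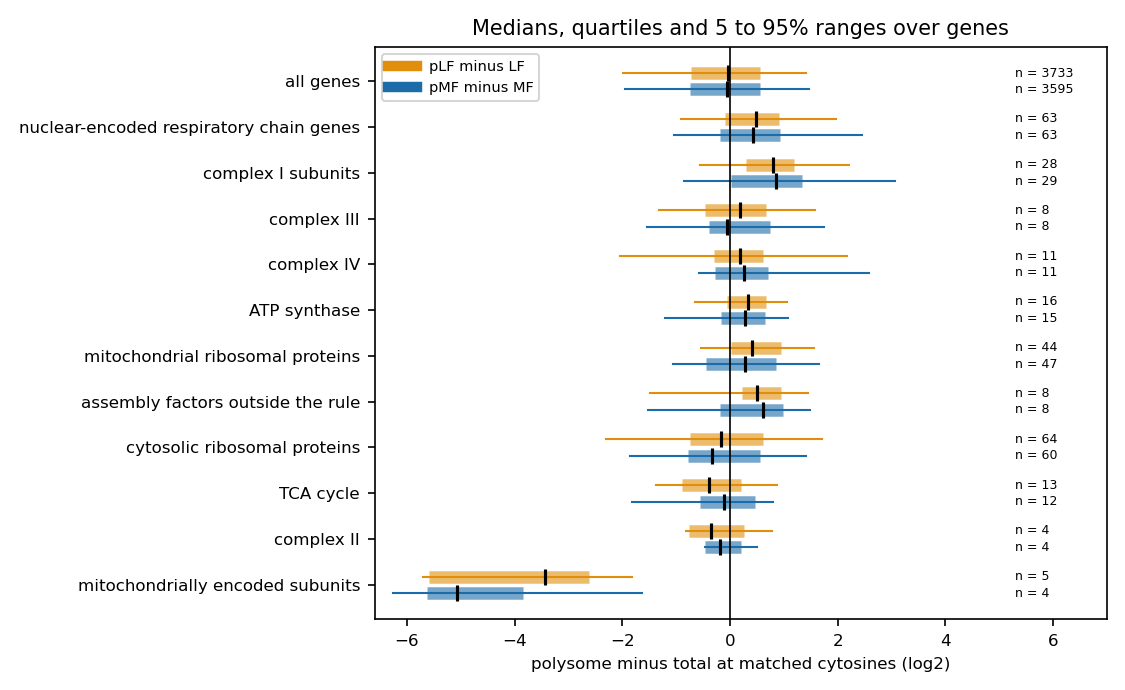
Polysome minus total differences at matched positions (log2, x axis) over the genes of each list, with a tick for the median, a thick bar for the quartiles, a thin line for the 5 to 95% range and n genes at the right, orange for low and blue for medium folate. The median over respiratory chain genes is 0.48 and 0.43, and the mitochondrially encoded subunits lie at -3.44 and -5.07.

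The correlation of coding length with the polysome-total difference was r = -0.13 and -0.10 over the 73 members, against -0.27 and -0.23 over 8409 genes with a coding length, given as a description across genes. The 53 members with a coding sequence under 600 bases had medians of 0.89 and 1.00, and the 20 longer members 0.81 and 0.47, against 0.33 and 0.30 for short and 0.02 and 0.03 for longer genes of the whole table. Members and other genes of like length were not compared by a test.

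Differences were also read in the 5′ and 3′ parts of each transcript. In all genes with enough matched positions in both parts, the median difference was -0.22 in the 5′ part and 0.12 in the 3′ part at low folate (1644 genes) and -0.23 and 0.13 at medium folate (1543 genes). In members it was 0.39 and 0.49 (51 genes), and 0.52 and 0.18 (49 genes). At low folate 26 of the 51 members were positive in both parts and 8 negative in both, and at medium folate 21 and 10 of the 49, while the rest changed sign between the parts. For Uqcrb the median over cytosines was -1.51 in the 5′ part and -1.73 in the 3′ part at low folate, and -1.93 and -2.13 at medium folate. For Cox4i1 it was 0.62 and 0.82, and 0.73 and 0.76. For Cox7c it was 3.99 and 4.55 at medium folate, where coverage in the 5′ part was 2764.5 and 2572 reads in the pMF libraries and 195.5 and 351.5 in the MF libraries. These 3 mRNAs kept 1 direction over both parts. Cox7a2l was among those that did not. Its 5′ part stood at -2.47 and -3.19 and its 3′ part at 0.31 and 0.39, and in the 3′ part at low folate its coverage was 4274 and 7361.5 reads in pLF and 5862 and 6786.5 in LF. Its value for the whole gene therefore depends on which cytosines are listed. At matched positions it was -3.17 ± 0.21 (adjusted p = 0.000152, limma) at low folate, with 81 cytosines of the 5′ and 76 of the 3′ part, and 0.27 ± 0.12 (adjusted p = 0.095) at medium folate, with 22 and 68.

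**Figure D4:**
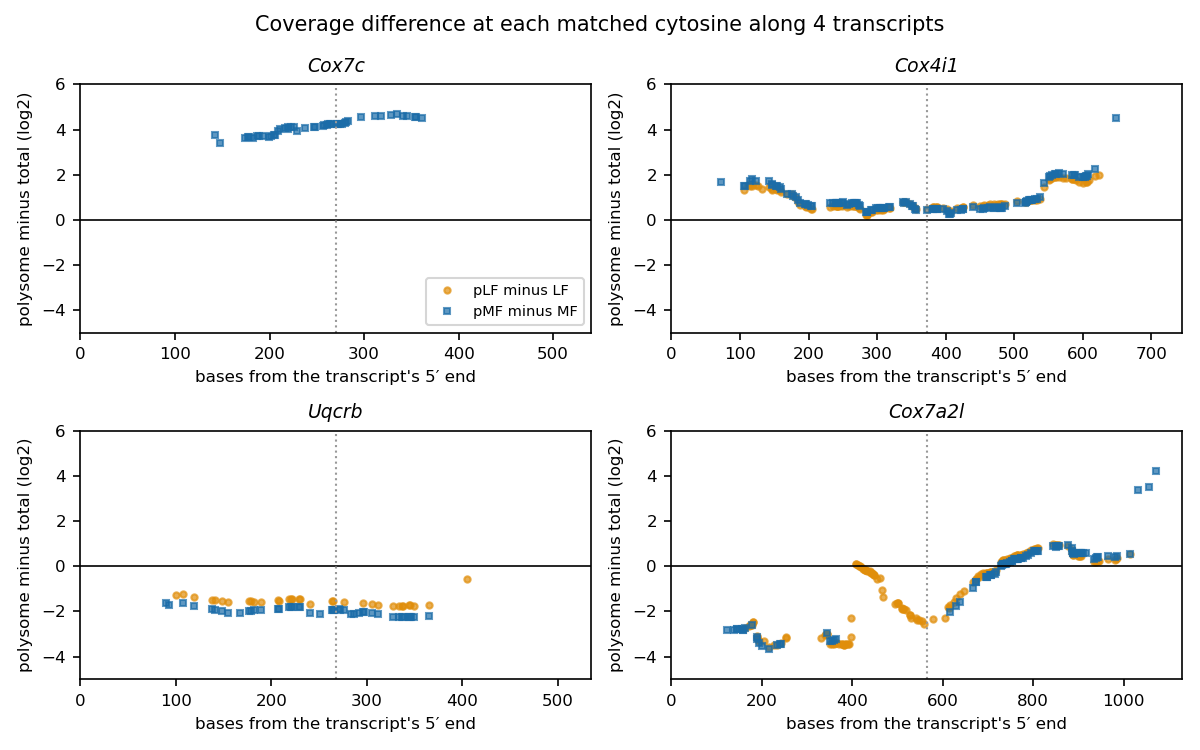
Polysome minus total coverage (log2, y axis) at each matched cytosine of Cox7c, Cox4i1, Uqcrb and Cox7a2l against the distance in bases from the 5′ end of the transcript, with orange circles for low folate, blue squares for medium folate and a dotted line at the middle. Points are drawn only for a comparison with enough matched cytosines in the transcript, and the medians of Cox7c by part are given at medium folate alone. Cox7a2l changes from a median of -2.47 in the 5′ part to 0.31 in the 3′ part at low folate, while Uqcrb is below 0 in both.

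The comparison of low with medium folate asks whether folate deprivation changed these mRNAs. In total mRNA 0 of 73 members passed the limma test with Benjamini-Hochberg adjustment, where 0% of 8683 genes were called, and 2 members were at an unadjusted p below 0.05. The median standard error of a member was 0.37 (log2) in this fit, which leaves small differences undetected. At matched positions it was 0.07, and still 0 of 63 members and 0% of 4827 genes were called, with 15 members and 775 genes at an unadjusted p below 0.05. The median difference over members was 0.10, against -0.01 over all genes, 49 of 63 were positive and 60 were within 0.5 of zero. The range ran from -0.50 in Atp5mpl to 0.81 in Cox7c. Cox7c, at 0.957 and 0.907 in LF and 0.379 and 0.622 in MF, had 0.81 ± 0.21 (adjusted p = 0.21, limma), and the groups did not overlap. Ndufa13 had 0.32 ± 0.12 (adjusted p = 0.28, limma), and its groups overlapped.

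In polysome mRNA 0 of 73 members were called between pLF and pMF, while 0.138% of all genes were called, 0.0691% in each direction, and at matched positions 0 of 64 members and 0% of 3531 genes. The median standard error of a member was 0.37 (log2), or 0.20 at matched positions, which leaves small differences undetected. Over all usable cytosines differences ran from -2.24 to 0.98. Their median was 0.18 against 0.04 over all genes, and 58 of 73 members and 4608 of 8683 genes were positive. Matched differences ran from -0.54 in Ndufs1 to 0.37 in Atp5k with a median of 0.09, and 63 of 64 were within 0.5 of zero. Between pHF and pMF 0 members were called, with 0.0115% of all genes, and matched differences ran from -0.32 in Ndufa13 to 0.30 in Uqcrc2, all 64 within 0.5. The test of whether the polysome-total difference itself changed between low and medium folate called 0 members of 73, with 0.0115% of all genes, and 0 of 57 at matched positions. For Ndufa13, Ndufb7, Ndufs7, Uqcr11, Uqcrq and Uqcrc2, which the study examined for translation, the change of that difference at matched positions was -0.08 ± 0.22, 0.15 ± 0.15, 0.23 ± 0.17, -0.29 ± 0.23, -0.11 ± 0.20 and 0.01 ± 0.25 (log2, SE; adjusted p = 0.97 to 0.99, limma). A fall of 0.5 lies within 2 SE of some of these values, such as that of Uqcr11, and a rise of 0.5 within 2 SE of others, such as that of Ndufs7. Changes of that size in those directions could have been missed. For Ndufb7 and Ndufs7 a fall of 0.5 lies beyond 2 SE. The study measured translation efficiency in separate mRNA-seq libraries, and Ndufa13 protein by western blot, not in these bisulfite libraries. Its fold limit lies below 0.5 (log2), so it counts changes too small to be judged here.

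The libraries labelled HF differed from MF in many members. Among 73 members 6 were higher and 4 lower (5.91% of all genes called, 3.69% higher and 2.22% lower), and at matched positions 16 of 62 were higher and 37 lower (80.2% of all genes called, 33.9% higher and 46.3% lower), with a median of -0.45 against -0.14 over all genes. Atp5c1, the rotating shaft γ of the ATP synthase, fell by 3.05 ± 0.62 (adjusted p = 0.029, limma), from 1.75 and 7.02 in MF to 0.434 and 0.410 in HF. The size of this fall rests in part on the high value in MF replicate 2. Ndufs4, an accessory subunit whose loss causes complex I deficiency, fell by 2.04 ± 0.37 (adjusted p = 0.019), from 3.18 and 3.46 to 0.766 and 0.853, and Atp5l, the membrane subunit g, fell by 1.69 ± 0.38 (adjusted p = 0.037), from 4.66 and 4.32 to 1.31 and 1.48. Cox8a, a small subunit of complex IV, was the other member called lower. Members called higher included Ndufaf8 at 2.62 ± 0.37 (adjusted p = 0.011, limma), Ndufb6 at 3.56 ± 0.88 (adjusted p = 0.048), where MF replicate 2 was at 0.0628, and Ndufa4 at 2.92 ± 0.44 (adjusted p = 0.014), which had -0.09 ± 0.11 (adjusted p = 0.46) at matched positions. Cox7c, Ndufa13 and Ndufv1 were the remaining 3. In members, as over all genes, fewer were called when a library of either group was left out. Counts also moved when other libraries of the shared fit were left out, to 3 without either LF replicate and 6 without either pMF replicate. Without MF replicate 2 or without HF replicate 1 the number of members called was 0, and without MF replicate 1 or HF replicate 2 it was 2.

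Polysome against total mRNA under the HF label gave 18 members higher and 2 lower of 73 (12.8% of all genes called, 6.37% higher and 6.41% lower). At matched positions it gave 39 higher and 10 lower of 62 (70.8% of all genes called, 35.8% higher and 34.9% lower). Each of these calls rests on the libraries labelled HF and holds for those libraries. Of 59 members with matched positions in the LF, MF and HF-labelled comparisons, 22 (37.3%) were called higher in all 3, against 13.2% of 2793 genes, and Cox4i1, Cox7c, Ndufa13, Ndufa4, Ndufs7 and Atp5b were among them. Called lower in all 3 were 3 members, Atp5g2, Ndufa7 and Uqcrb, which is 5.08% against 12.9% of all genes. Over all usable cytosines 6 of 73 were called higher in all 3 (1.51% of all genes) and 0 lower (1.02%), and of the genes just named only Cox7c was among the 6. The polysome-total difference of 1 member, Ndufaf8, was called different between the HF label and MF at -2.97 ± 0.53 (adjusted p = 0.045, limma; 0.898% of all genes called). Its value in the libraries labelled HF lay above that in pHF, at 3.44 and 2.80 against 2.02 and 1.14, while in MF it lay below pMF. At matched positions 33 of 53 members were called, with 61.2% of all genes.

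Calls of unconverted member cytosines were rare outside the libraries labelled HF. For a call, a cytosine needed a level of 0.1 or more, 6 or more unconverted reads and coverage reaching 20. The study's further filters, on poorly converted reads, signal to noise, adjusted p and RNA structure, were not applied here. A called cytosine can thus be methylated or have escaped conversion. Of 6559 to 10587 member cytosines with that coverage per library, the LF lists had 1 and 0 calls, the MF lists 1 and 3, and the HF-labelled lists 21 and 27. The pLF lists had 2 and 1, the pMF lists 1 and 1, and the pHF lists 1 and 5. These are 0 to 0.0762% outside the HF label and 0.242% and 0.335% within it, and over all nuclear genes the HF-labelled lists had 0.272% and 0.245% and the other 10 had 0.0295 to 0.5%, highest in pHF replicate 2. Over the cytosines with a level below 0.05 the share of unconverted reads was 0.0867 to 0.153% in members and 0.128 to 0.192% in all nuclear genes, and since listing needs 1 unconverted read, this share falls as coverage rises. Cytosines called in both replicates of a group numbered 17, and 2 of them were called outside the HF label.

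The first lay in Cox6b2 on the minus strand at chr7:4751948, in exon 3 or 4 and in coding sequence or 3′ UTR depending on the transcript, and was called in both replicates of HF, pLF, pMF and pHF. The second lay in Ndufv1 on the minus strand at chr19:4010408, outside the exons of protein-coding transcripts, and was called in both replicates of MF. Their deposited contexts of 21 bases, shown because they are the 2 member cytosines called in both replicates of a group outside the HF label, are written 5′ to 3′ with the cytosine in capitals.
Cox6b2: gcagatcaagCagggaacttt
Ndufv1: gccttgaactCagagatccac
At the Cox6b2 cytosine the unconverted share in total mRNA was 8.33% and 9.89% (LF), 1.41% and 11.3% (MF) and 32.2% and 29.5% (HF), at a coverage of 60 to 298. In polysomes it was 11.5% and 10.9% (pLF), 17% and 16.4% (pMF) and 11.3% and 12.8% (pHF). The 95% Wilson interval was 0.249 to 7.56% for MF replicate 1 (1 of 71 reads) and 6.03 to 20.0% for MF replicate 2 (9 of 80 reads), and 11.7 to 24.1% for pMF replicate 1 (24 of 141 reads). The intervals cover counting error only, as PCR reads without molecular identifiers are not independent molecules. Polysome mRNA was thus higher than total mRNA in each pair of groups other than HF, with a spread in MF as wide as the gap. By Fisher's exact test on pooled reads the level was 10.0 points higher in pMF than in MF (adjusted p = 0.00754, two-sided), where 53.6% of 403 tested cytosines were called. The cytosine was picked for its calls in pMF among other groups, which MF lacked, so the test is not independent of that choice. This call was lost without MF replicate 1 and in limma on the log odds (adjusted p = 0.17). The difference was 1.84 points at low folate (adjusted p = 0.70 by Fisher's exact test; 65% of 480 called). The difference of pLF from pMF was -5.56 points (adjusted p = 0.27 by the same test, 9.68% called), and that of pHF from pMF was -4.57 points (adjusted p = 0.55, 9.1% called).

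At the Ndufv1 cytosine the share was 40% and 18.2% (LF), 25.9% and 15.8% (MF) and 33.3% and 25% (HF), at a coverage of 12 to 58, and it was not listed in any polysome library. Its Wilson intervals overlapped throughout, with 21.9 to 61.3% for LF replicate 1 and 7.44 to 30.4% for MF replicate 2. LF and MF were not called different on pooled reads (adjusted p = 0.82 by Fisher's exact test; 0.76% of 1842 cytosines called). Nor were they by limma on the log odds, which uses the spread of the replicates (adjusted p = 0.66).

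The other 15 cytosines, in 14 members, were called in the libraries labelled HF alone, 10 of them in coding sequence and 5 in the 3′ UTR. Their levels were 12.5 to 46.2% there. In the other 10 libraries they were at most 2.78% or not listed, apart from Atp5e, the small ε subunit of the ATP synthase, at 11.1% (2 of 18 reads) in pHF replicate 1. At the deepest of them, in Ndufb9, the level was 28.4% and 26.2% of 1309 and 1071 reads in HF and at most 0.410% in the other libraries that listed it. Of the 16 member cytosines called in both HF-labelled libraries, 10 (62.5%) directly followed the 3 bases GGG. The same held for 55.5% of all 3167 cytosines called under that label, for 1.63 to 2.74% of those called in each of the other groups, and for 1.95% of 15626 member cytosines with a level below 0.05. The sequences of 6 of these members follow because the run of G, in capitals with the cytosine itself, is what they share. They lie at chr15:58936430 (plus strand, Ndufb9), chr19:4008730 (minus strand, Ndufv1), chr7:120651324 (plus strand, Uqcrc2), chr15:102665129 (minus strand, Atp5g2), chr9:79756324 (minus strand, Cox7a2) and chr11:4702059 (minus strand, Uqcr10), the first 5 in coding sequence and the last in the 3′ UTR.
Ndufb9: ctccGGGGGGCacttccttcg
Ndufv1: gtcgtGGGGGCacctggtttg
Uqcrc2: tcaaaaGGGGCaacaacacca
Atp5g2: ggagctGGGGCtgcgacagtt
Cox7a2: aaaggcGGGGCatctgatgcc
Uqcr10: agtgtgtGGGCaagctatggc
The run spans 3 to 6 bases in these genes. In Uqcrc2 the level was 16.6% and 26.6% in HF and at most 0.446% elsewhere, and in Cox7a2 it was 21.9% and 17.7% against at most 0.284%. Since these cytosines were picked for their calls in HF, their differences from the other groups are given as a description, with no test.

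**Figure D5:**
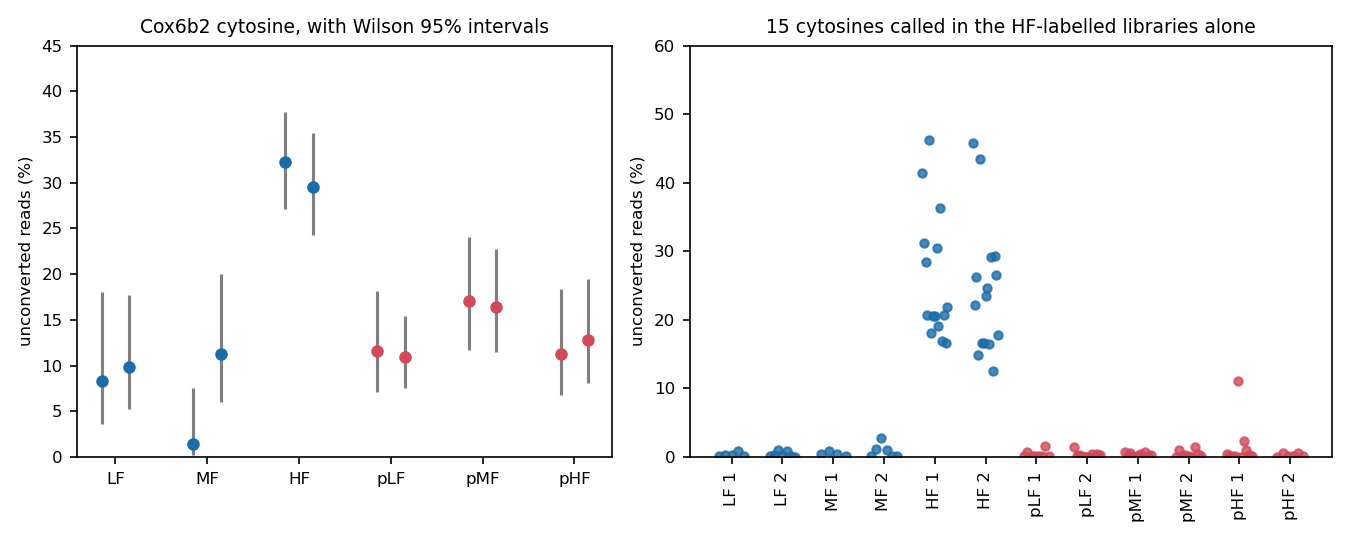
Left, unconverted reads (%) at the Cox6b2 cytosine in each library with Wilson 95% intervals, blue for total and red for polysome mRNA, at 32.2% and 29.5% in HF and 1.41 to 17% elsewhere. Right, unconverted reads (%) of the 15 member cytosines called in the HF-labelled libraries alone, in each library that listed them, at 12.5 to 46.2% in HF and at most 11.1% elsewhere.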

How the data were processed

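Per the submitters' notes, the upstream steps by the authors were trimming (fastp), unique alignment against mm10 (meRanGh), cytosine calling (meRanCall) and annotation of genes from Ensembl release 96 (meRanAnnotate). The deposited lists give per cytosine the counts of reads (coverage and unconverted reads) and the methylation level, a fraction of those reads, for cytosines with coverage of at least 10 and at least 1 unconverted read. They are one list per library, and 0 columns of per-sample values went unused. Reads shared with near-identical processed copies of these genes are uncertain.

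Cytosines with variant bases were left out. Per gene, log2 of the median coverage over cytosines with a level below 0.05 (at least 5 in each library) was centred on the median gene and tested with limma 3.58.1 in R 4.3.3 in 1 fit of 12 libraries with 9 contrasts, Benjamini-Hochberg adjusted at 0.05. Coverage is not a count per gene, so no count test was used. Matched positions were cytosines listed in every library of a comparison, with no limit on the level. Each comparison at matched positions was a separate limma fit on the libraries of that comparison alone. Cytosine levels were compared by two-sided Fisher's exact test on pooled reads (scipy 1.17.1) in 7 comparisons. An exact permutation test of 2 against 2 cannot go below p = 0.333. Alternatives were other minima, scalings, fits and left-out libraries. The code was tested on simulated data. Members and gene lists were chosen with earlier results of these data known. Named were the highest and lowest members of each complex, those with the most extreme polysome-total differences or passing folate tests, those with called cytosines, genes the study examined and tissue isoforms. One member is counted but not reported here by name or plotted by itself.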

Additional observations from a re-analysis of the deposited data

Results flagged for a closer look

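The polysome-total difference of Ndufaf8, a complex I assembly factor, differed between the HF label and MF by -2.97 (log2; adjusted p = 0.0446, limma interaction term). Across 21 alternatives the value ran from -3.39 to -2.56 with adjusted p from 0.00599 to 0.174, and 9 of them passed the threshold. Ndufaf8 had too few matched positions for the fit there. The libraries labelled HF, on which the value rests, stood apart from LF and MF in the coverage of all genes, and the part of this in the value was not tested.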

How the results depend on the processing

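Counts of members called in polysome against total mRNA moved with several settings. With cytosines listed in all 12 libraries they were 33 at low folate, 32 at medium folate and 33 under the HF label (19, 20 and 20 as reported), where 775, 785 and 860 of 1204 genes were called, with the mean in place of the median coverage 38, 38 and 50, and with cytosines listed in every library of the comparison 41, 50 and 49. Quantile normalization gave 9 and 13 at low and medium folate, a variance trend with robust eBayes 30 and 31, and for the HF label all listed cytosines gave 11 and scaling by summed coverage 35. Leaving out 1 library gave 3 to 23, 4 to 31 and 7 to 23. For HF against MF (10) the same settings gave 35, 32, 53, 16 and 16, all listed cytosines 4 and left-out libraries 0 to 14. For the change of the polysome-total difference between HF and MF (1) they gave 25, 19, 33, 5 and 3, at least 20 cytosines per gene, all listed cytosines or 1 gene name gave 0, at least 1 cytosine gave 3, and left-out libraries 0 to 4. Over all genes, calls at low folate went from 1060 to 2990 with the mean and 2168 at matched positions, and to 159 to 1202 with a library left out. At medium folate they went from 977 to 2931, 2661 and 140 to 1286. The 4 comparisons of LF with MF, pLF with pMF, pHF with pMF and the low folate change of the polysome-total difference called 0 members under each setting run.

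Same-numbered replicates did not deviate together (correlations -0.0571 to 0.0286 over 15 pairs of groups), and the main fit does not pair them. With 2 libraries per group, this check cannot show whether same-numbered samples came from 1 culture. With the replicate block 15, 14 and 16 members were called in the polysome comparisons, 5 in HF against MF and 0 for its change of the polysome-total difference. The Cox6b2 cytosine in pMF against MF was called 0 times with the replicate block, with limma on the log odds or without MF replicate 1 (0 to 1 over left-out libraries). Member cytosines called in both replicates were 10 with a coverage of at least 50 and 9 with a level of at least 20%, against 17. Of these, 2 were called outside the HF label as reported, 1 with a coverage of at least 50 or at least 10 unconverted reads (Cox6b2), and 0 with a level of at least 20%.

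Some genes turned direction where other cytosines were used. With cytosines listed in all 12 libraries Atp5g2 was at -0.99, -1.17 and -2.39 in the polysome comparisons for LF, MF and the HF label, Ndufa2 at -0.39 and -0.39 and Ndufs4 at -0.50 and -0.85 in the first pair, Atp5c1 at 0.31 at medium folate and Ndufb10 at -0.76 under the HF label. At matched positions Atp5g2 was at -0.57, -1.06 and -2.15, Atp5c1 at 0.28, Ndufs4 at -0.44, Ndufb10 at -0.83 and, for HF against MF, Ndufa4 at -0.088. Atp5g2 was at -1.04 under the HF label with mean coverage, and Ndufb9 at 2.26 with 1 gene name. The cause was not tested. Of the other values under the alternatives, which include the medians over members, 2685 were counted as unchanged. For single genes this means the same side of the threshold, and a turn of direction without a call in either fit is counted there too. A further 171 passed the threshold newly, 195 no longer passed and 46 without a test moved.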
